A study of Mus musculus with 36 samples.

Results

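The clustered protocadherins are a family of cell surface adhesion proteins encoded in 3 tandem arrays, and they were followed here in mouse CD4+ T cells that lack heterochromatin protein HP1α or HP1γ. Members were all genes of the count table whose symbol begins with Pcdha, Pcdhb or Pcdhg followed by a member number or letter, which gave 58 of 56748 genes: 14 of the alpha array, 22 of the beta array and 22 of the gamma array. All lie on the plus strand of chromosome 18 in the GRCm39 build. The alpha array runs from position 37063237 to 37320716, the beta array from 37397991 to 37657532 and the gamma array from 37794846 to 37975014.

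Each variable exon of the alpha and gamma arrays has its own promoter and is spliced to constant exons shared by the whole array, whereas beta members carry their coding sequence in an exon of their own. In neurons a small, varying choice of these promoters is used in each cell, and the resulting proteins form a recognition code on the cell surface that lets a neurite tell itself from its neighbours. The promoters are known to be held silent by DNA methylation and by histone H3 lysine 9 methylation, the mark that HP1 proteins read, and are opened through CTCF and cohesin. The last variable exons of the alpha and gamma arrays, called C-types, are regulated differently from the other members and are used more evenly between cells.

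RNA-seq libraries were available for 12 groups, each of 3 libraries, from 2 mouse lines on a mixed 129/Sv and C57BL/6 background. In the HP1a line the floxed Cbx5 gene, which encodes HP1α, had been deleted in the germ line with CMV-cre, and wild-type (WT) cells came from littermates with intact Cbx5. In the HP1g line both alleles of Cbx3, which encodes HP1γ, were floxed in all mice, and knock-out (KO) mice also carried Cd4-cre, which deletes the gene in T cells only. Naive cells were CD62L+ CD44-/low CD4+ T cells isolated from spleen. Tconv were the progeny of such cells, given to lethally irradiated B6 hosts together with B6 and B6D2F1 bone marrow and sorted after 3 weeks as Thy1.1- H-2Kb+ H-2Kd- cells with the Vβ6 T cell receptor chain. TconvTreg were the matching cells of hosts co-injected with WT regulatory T cells (Treg) that had been expanded ex vivo. Replicate 3 of HP1g KO TconvTreg was left out for its poor read quality, which left 2 libraries in this group and 35 in all.

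The 35 libraries held 37029477 to 63042165 estimated counts each, and 3 counts, the limit that a count of 0 allows, corresponded to 0.0446 to 0.0816 CPM (counts scaled to the library total and the TMM factor of edgeR). Intervals and limits of this kind cover counting error only. Cbx5 was at 9.25 to 19.7 CPM in the HP1a KO libraries and at 18.6 to 61.9 CPM in the HP1a WT libraries, without overlap within a condition. Cbx3 had a mean of 71.8 CPM in HP1g KO and 141 CPM in HP1g WT naive cells, 69.1 and 94 CPM in Tconv, and 60.2 and 87.9 CPM in TconvTreg, also without overlap within a condition. Neither gene passed both thresholds of edgeR in a comparison of KO with WT, and reads from exons left in place count towards both. Labels do not tie libraries to separate animals or experiments, so p-values measure the spread between these libraries. Naive and grafted libraries carry separate series of sample numbers, so that a difference in handling and the condition cannot be told apart.

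A member was taken as detected where every library of at least 1 group held at least 3 counts. By this measure 20 of 58 members (34.5%) exceeded detection, beside 20547 of all 56748 genes (36.2%). The 3 arrays differed widely in this. None of the 14 alpha members, 1 of the 22 beta members and 19 of the 22 gamma members were detected, and 6 gamma members were detected in all 12 groups. In the gamma array 7 members were detected in HP1a WT Tconv and 18 in HP1g KO TconvTreg, the lowest and highest numbers among the groups, although the latter rests on only 2 libraries. These numbers also depend on depth, as the limit is one in counts. HP1a WT Tconv libraries held 37029477 to 49106914 counts, and those of HP1g KO TconvTreg 58304203 and 61772937.

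The alpha array was all but silent. It collected 34 counts over the 35 libraries together, and 10 of its 14 members had no count in any library. Pcdha8 held 29 of these counts, with at most 10 in a library. The C-type members of the array, Pcdhac1 and Pcdhac2, had 0 and 3 counts in all libraries together. The summed alpha level reached at most 0.178 CPM, in 1 HP1a KO TconvTreg library, and was 0 in all libraries of 6 groups, among them both KO groups of Tconv.

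The beta array collected 159 counts, and 6 of its 22 members had none. Pcdhb21 was the highest, with 26 of its 39 counts in a single HP1a WT TconvTreg library. Pcdhb22 was the only beta member to pass the detection limit, through HP1g KO TconvTreg, where its mean level of 0.066 CPM was at least 1.08-fold above the limit of 0.0613 CPM that applies to the WT libraries at 0. Summed beta levels stayed between 0 and 0.74 CPM. In HP1g KO TconvTreg they were 0.241 and 0.269 CPM, against 0 to 0.0205 CPM in HP1g WT TconvTreg, whereas in Tconv the HP1g KO libraries (0.0192 to 0.0444 CPM) lay within or below the range of WT (0.0415 to 0.201 CPM). No alpha or beta member held enough counts to enter the edgeR test in any comparison, and none was called by DESeq2 or by edgeR without a filter on low counts. For these 36 genes a change was not detectable at this depth.

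**Figure D1:**
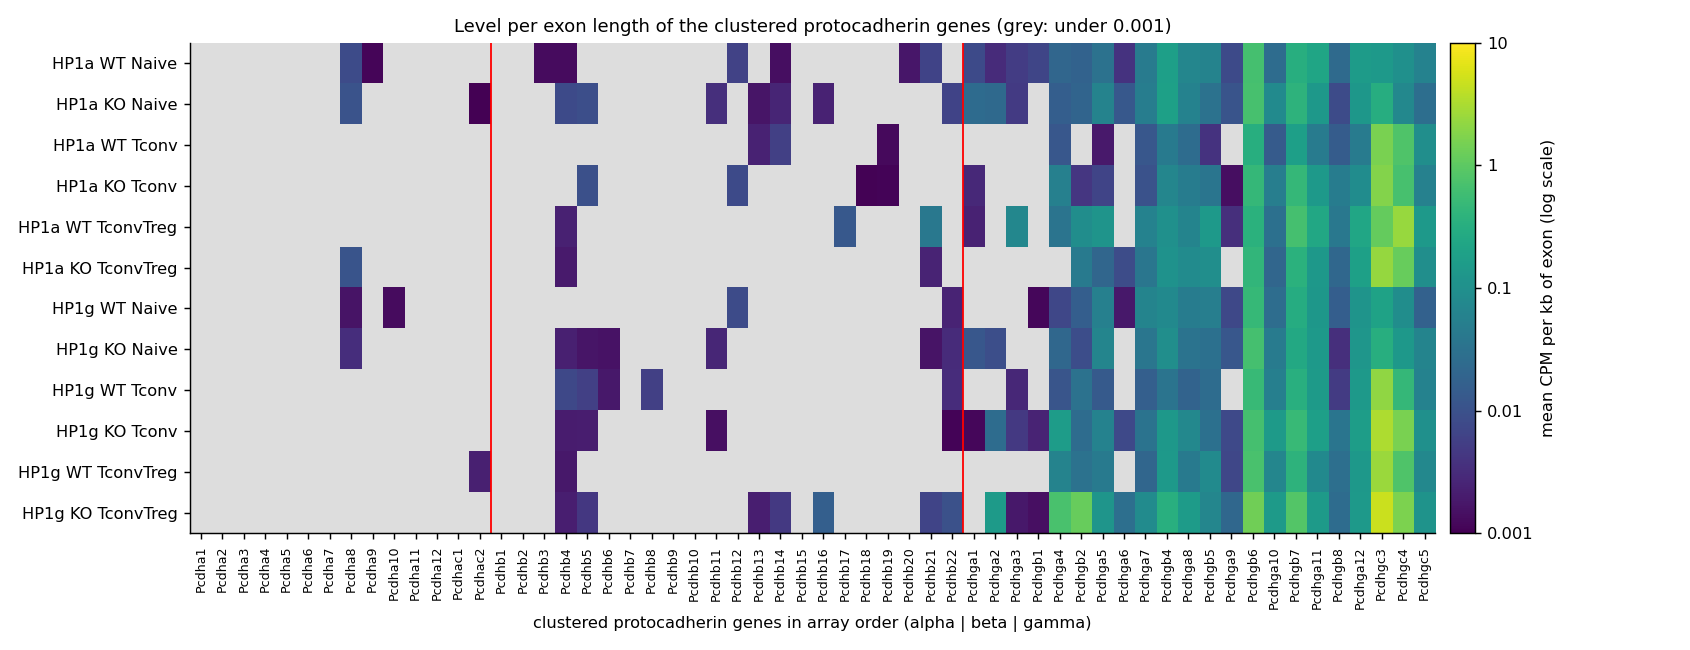
Mean level of each of the 58 clustered protocadherin genes (horizontal axis, in array order) in the 12 groups (vertical axis), in CPM per kb of exon on a log colour scale from 0.001 to 10, with grey for levels under 0.001. The alpha and beta arrays are mostly grey, and the right end of the gamma array holds the highest levels, with Pcdhgc3 and Pcdhgc4 brighter in Tconv and TconvTreg than in naive cells.

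The silence of the alpha and beta arrays did not extend to the genes around and between them. Of 18 neighbouring genes in the table, 15 had at least 3 counts in all 35 libraries. Taf7, which encodes a subunit of the general transcription factor TFIID and lies between the beta and gamma arrays, was at 50.2 to 183 CPM. Hdac3, a histone deacetylase beyond the gamma array, was at 65.8 to 105 CPM, and Zmat2, a splicing factor gene before the alpha array, at 72.6 to 159 CPM. The 12 non-clustered protocadherins examined, which lie elsewhere in the genome, had at most 9 counts in any library (Pcdh12 and Pcdh17), and none entered a test.

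The gamma array held 41372 of the 41565 counts of the family. Its members are of A type (12 genes), B type (7) and C type (3). A median of 45.6% of the exon bases of a gamma member are also exons of another gene on the same strand. The range was 32.2% to 67.4%, with the highest share in Pcdhga4, and the constant exons are shared by the whole array. Salmon therefore divides reads between members, and only 13.9% of the gamma counts above 0 were exactly whole numbers as deposited, beside 55.7% of all counts above 0 in the table. Values of single members carry that uncertainty, and sums over the array do not. The non-coding gene BC037039 overlaps Pcdhgc3 on the opposite strand, and as the library kit does not mark strand the reads of the pair cannot be told apart in the shared bases. Where Pcdhgc3 rose most, in Tconv, BC037039 held 2.39% to 11.7% as many counts as Pcdhgc3.

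Over the 35 libraries and per kb of exon, Pcdhgc3 was the highest member with a mean of 1.61 CPM per kb. It was followed by Pcdhgc4 (0.805 CPM per kb), Pcdhgb6 (0.584 CPM per kb) and Pcdhgb7 (0.406 CPM per kb). Pcdhga11, Pcdhga12 and Pcdhgb4 followed at 0.148, 0.14 and 0.12 CPM per kb. The remaining members among the 10 with the most CPM, Pcdhgb2, Pcdhgc5 and Pcdhgb5, had 0.0928, 0.0748 and 0.0547 CPM per kb. The place of Pcdhgb2 rests on HP1g KO TconvTreg replicate 1, which held 621 of its 907 counts. Without that library its mean fell from 0.463 to 0.163 CPM (0.0326 CPM per kb), and it was not among the 10. The order depended on the condition. In HP1a WT naive cells Pcdhgb6 led with 0.662 CPM per kb and Pcdhgc3 was at 0.142 CPM per kb, whereas in HP1a WT Tconv Pcdhgc3 was at 1.57 and Pcdhgb6 at 0.32 CPM per kb. At the start of the array Pcdhga1, Pcdhga3 and Pcdhgb1 did not exceed 47 counts in a library.

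The numbers of CpG dinucleotides in the 300 bases around the annotated start varied within the gamma array. The median was 7 for gamma members, 6.5 for alpha, 5 for beta and 8 for all protein-coding genes, and within the gamma array 6 for A types and 9 for both B and C types. Pcdhgc3 had 22, the most of all 58 members, and Pcdhgc4 and Pcdhgc5 had 9 and 5.

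The summed gamma level separated the 3 conditions. In naive cells it was 4.12 to 13.1 CPM over the 12 libraries of both lines. In HP1a WT Tconv the libraries were at 18.6, 16.1 and 18.7 CPM, and in HP1g WT Tconv at 19.9, 22.7 and 24 CPM. With Treg, HP1a WT libraries were at 42.2, 26.4 and 32 CPM and HP1g WT libraries at 25.3, 25.7 and 35 CPM. Every Tconv library was thus above every naive library, and in each line and genotype every TconvTreg library was above its Tconv counterparts. The sums are given as a description without a test. As these are bulk samples, fewer cells using an array and less RNA per cell cannot be told apart.

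**Figure D2:**
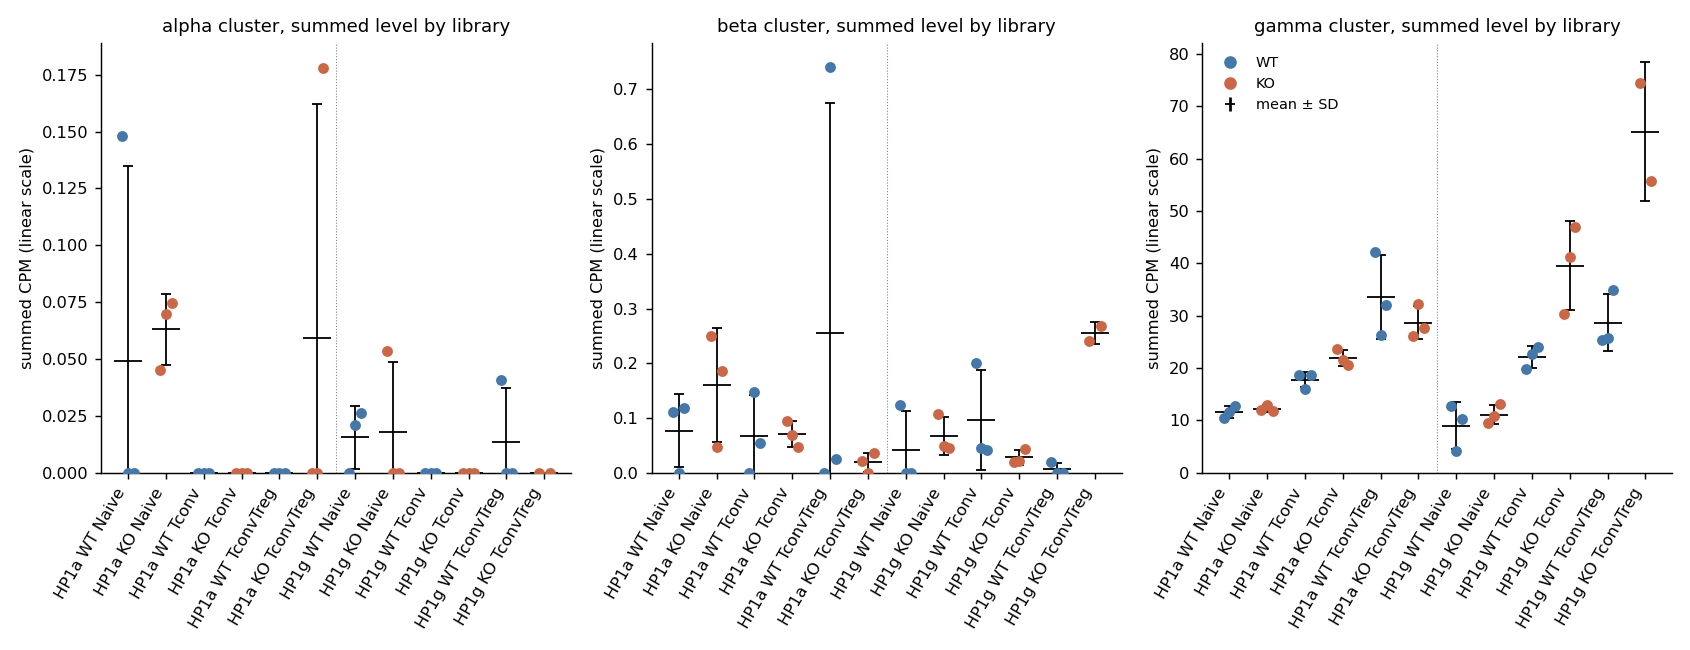
Summed CPM of the alpha, beta and gamma arrays (vertical axes, linear scales that differ between panels) in each library of the 12 groups (horizontal axis), with points for libraries, bars for the mean ± SD and WT and KO in different colours. The gamma sum lies at 4.12 to 13.1 CPM in naive libraries and reaches 55.7 and 74.5 CPM in HP1g KO TconvTreg, while alpha and beta sums stay under 1 CPM.

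The first comparison was Tconv against naive cells, which covers activation together with transfer, host, time and the Vβ6 sort. In all 4 settings of line and genotype Pcdhgc3 and Pcdhgc4 rose, whereas the summed A and B types were lower in HP1a WT and HP1a KO, overlapped in HP1g WT and were higher in HP1g KO. Calls were made with the quasi-likelihood test of edgeR at a Benjamini-Hochberg adjusted p under 0.05 over all genes and an absolute log2 fold change above 1. Of 9 members tested in HP1a WT 2 were higher and 4 lower, where 12.9% of all genes were higher and 10.2% lower. In HP1a KO 2 of 11 were higher and 1 lower (12.4% and 7.24% of all genes), in HP1g WT 2 of 11 were higher and 0 lower (15% and 8.55%), and in HP1g KO 3 of 11 were higher and 0 lower (15.7% and 7.3%). The median log2 fold change of the members was -1.04, 0.06, 0.19 and 0.69 in this order, beside -0.04, -0.01, -0.03 and 0.02 over all genes.

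Pcdhgc3, the C-type member known for its broad use also outside neurons, was at 0.666, 0.695 and 1.02 CPM in HP1a WT naive libraries and at 8.41, 7.36 and 10.6 CPM in HP1a WT Tconv. HP1g WT libraries moved from 1.51, 0.773 and 1.13 CPM to 10.5, 12.3 and 13.7 CPM. All naive libraries of the 4 groups, at 2.13 CPM or less, were below all Tconv libraries, at 7.36 CPM or more. The log2 fold change was 3.47 (SE 0.286, adjusted p = 3.49e-05, edgeR) in HP1a WT, 2.55 (SE 0.25, adjusted p = 0.000255) in HP1a KO, 3.42 (SE 0.306, adjusted p = 0.000139) in HP1g WT and 3.35 (SE 0.221, adjusted p = 1.02e-05) in HP1g KO. These calls held without each library in turn.

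Pcdhgc4, a C-type member needed for the survival of interneurons, moved in the same direction. Its naive libraries were at 0.093 to 1.54 CPM and its Tconv libraries at 2.26 to 13.7 CPM, again without overlap in any setting. Its log2 fold change was 2.97 (SE 0.432, adjusted p = 0.000764, edgeR) in HP1a WT, 3.20 (SE 0.778, adjusted p = 0.0146) in HP1a KO, 2.34 (SE 0.495, adjusted p = 0.00889) in HP1g WT and 3.53 (SE 0.738, adjusted p = 0.00852) in HP1g KO. In HP1a KO the call was lost without naive replicate 3 (adjusted p = 0.0617, edgeR). The third C-type member, Pcdhgc5, had log2 fold changes of 0.68 to 1.75 with overlapping libraries in each setting and was not called (adjusted p = 0.113 to 0.339, edgeR), although it was without naive replicate 1 in HP1a KO (adjusted p = 0.0221) or without Tconv replicate 3 in HP1g WT (adjusted p = 0.0443).

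The makeup of the gamma transcripts therefore differed between conditions. C types made up 13% to 30.8% of the summed gamma CPM in the 12 naive libraries, 61.7% to 83.4% in the 12 Tconv libraries and 53.9% to 79.3% in the 11 TconvTreg libraries. The summed level of A and B types was 9.75 ± 1.53 CPM (SD, n = 3) in HP1a WT naive cells and 3.63 ± 0.684 CPM (n = 3) in HP1a WT Tconv, with the latter lower in every library, and in HP1a KO it was 9.9 ± 1.38 and 7.5 ± 0.673 CPM (n = 3 each), also lower in every Tconv library. In HP1g WT it was 7.21 ± 3.72 and 6.82 ± 0.801 CPM (n = 3 each), with overlap, and in HP1g KO it was 8.06 ± 1.02 and 11.5 ± 0.15 CPM (n = 3 each), with the Tconv libraries above all naive ones.

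The 4 members that fell in HP1a WT were of A and B types. Pcdhgb6, the most abundant of them, went from 2.72, 3.51 and 3.36 CPM to 2.01, 1.2 and 1.42 CPM (log2 fold change -1.04, SE 0.296, adjusted p = 0.0203, edgeR). Pcdhgb4 went from 0.776, 1.19 and 1.19 CPM to 0.0816, 0.105 and 0.591 CPM (log2 fold change -2.02, SE 0.697, adjusted p = 0.043, edgeR). Pcdhga11 had a log2 fold change of -2.24 (SE 0.781, adjusted p = 0.045, edgeR) and Pcdhga12 one of -1.74 (SE 0.607, adjusted p = 0.0449). None of these 4 calls was stable: each was lost on leaving out naive replicate 3 and Tconv replicate 2, and others, with adjusted p up to 0.128. Pcdhgb5, which was not tested by edgeR, was called lower by DESeq2 (adjusted p = 0.00666), with 9, 29 and 39 counts in naive and 0, 0 and 3 in Tconv libraries (naive level 17.7 times that of Tconv, 95% interval 5.83 to 87.7). With it DESeq2 called 7 members in HP1a WT, where it called 20.3% of all genes.

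In HP1a KO Pcdhgb4 fell as well, from 1.02, 1.51 and 0.82 CPM to 0.477, 0.3 and 0.445 CPM (log2 fold change -1.43, SE 0.392, adjusted p = 0.0235, edgeR), and the call was lost without any of 3 libraries (naive replicate 2, Tconv replicates 2 and 3; adjusted p = 0.0621 to 0.093). In HP1g KO Pcdhga4 rose, from 0.143, 0.0749 and 0.0903 CPM in naive to 0.961, 0.943 and 0.422 CPM in Tconv libraries (log2 fold change 2.88, SE 0.536, adjusted p = 0.00297, edgeR). This call held without each library. Pcdhga4 is also the gamma member with the largest share of exon bases in common with another gene, 67.4%, which adds to the uncertainty of its counts. In HP1g WT the lowest member was Pcdhga7, with a log2 fold change of -1.97 (adjusted p = 0.131, edgeR), and in HP1g KO Pcdhga5 with -0.06 (adjusted p = 0.972).

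**Figure D3:**
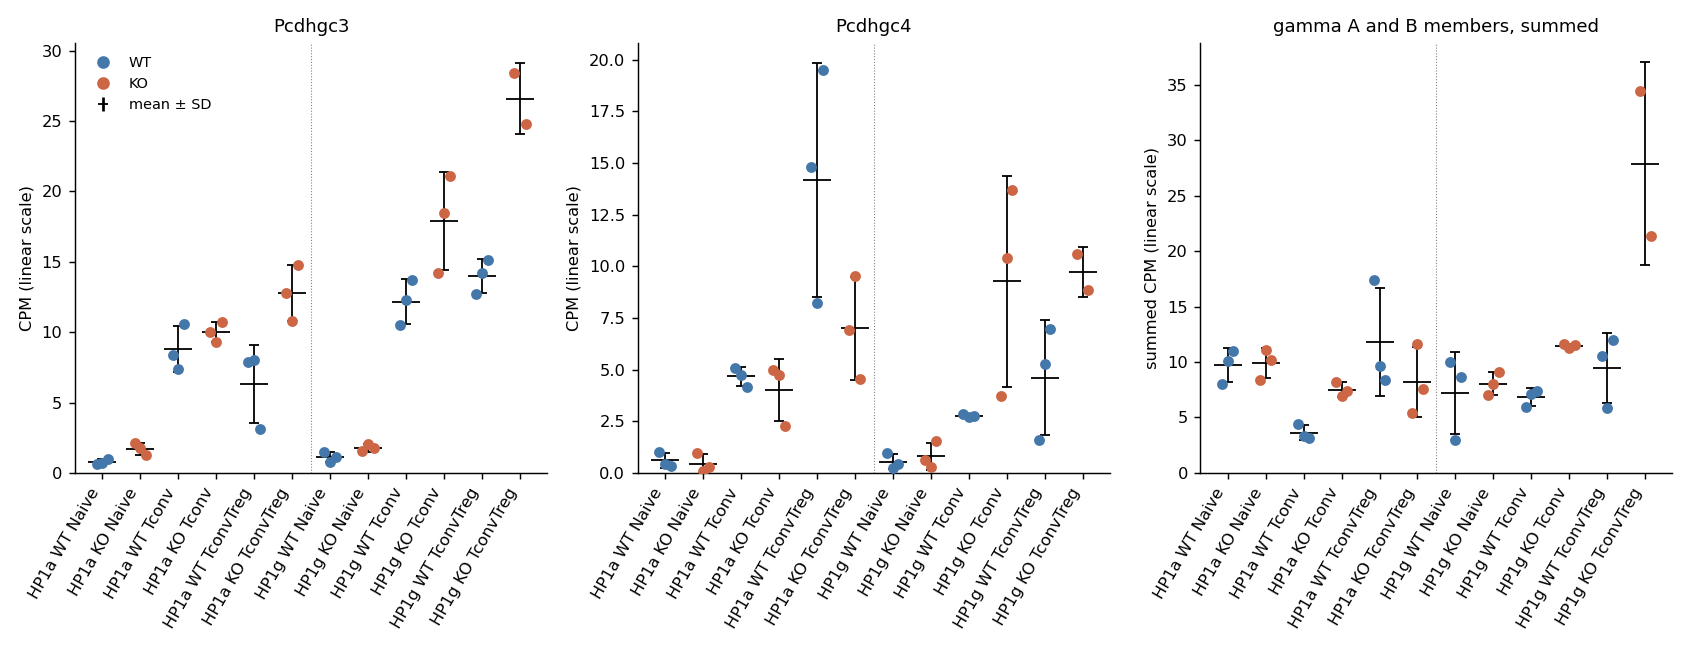
CPM of Pcdhgc3 and Pcdhgc4 and summed CPM of the gamma A and B members (vertical axes, linear scales) in each library of the 12 groups (horizontal axis), with the mean ± SD of each group. Pcdhgc3 and Pcdhgc4 lie higher in all grafted libraries than in the naive libraries of the same line and genotype, whereas the A and B sum of HP1a WT goes from 9.75 CPM in naive cells to 3.63 CPM in Tconv.

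Genes known to act on these promoters were examined beside the members. None of 11 genes for CTCF, cohesin and its loaders was called between Tconv and naive cells in any setting. Among 23 genes of heterochromatin and DNA methylation, Uhrf1, which recruits the maintenance methyltransferase to replicating DNA, rose in all 4 settings (log2 fold change 3.14 to 4.13, adjusted p = 3.67e-05 to 0.011, edgeR). Tet1, which oxidises methylated cytosine, fell in all 4 (-3.94 to -2.65, adjusted p = 3.49e-06 to 0.00138). Tet3 was called lower in HP1a WT (-1.21) and in HP1g KO (-1.07), and Cbx5 itself higher in HP1g KO. Of 4 intracellular partners of protocadherins only Ptk2, the focal adhesion kinase that gamma protocadherins inhibit, was called, and it fell in all 4 settings (-4.32 to -3.37, adjusted p = 5.25e-06 to 0.00202, edgeR). Of the neighbouring genes only Cd14, the lipopolysaccharide receptor of myeloid cells, was called, as higher in all settings but HP1a WT, and there it was higher with Treg.

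Markers of other cells moved with the condition too. Of 12 myeloid markers 7 or 8 were called higher in Tconv of HP1a KO, HP1g WT and HP1g KO, and 1 in HP1a WT. Itgam was called lower in HP1a WT and Ctss in HP1g WT. The summed level of the myeloid list was lower in Tconv of HP1a WT, at 94.5 to 121 CPM against 173 to 200 CPM in naive libraries. In HP1a KO, HP1g WT and HP1g KO the summed levels of naive and Tconv libraries overlapped. The erythroid list of 7 genes had 5 called lower in HP1a WT. In HP1g edgeR called 6 higher in WT and 5 in KO, where DESeq2 called 0 and 7. The summed erythroid level varied widely between Tconv libraries, from 75.9 to 4970 CPM in HP1g WT and from 159 to 3330 CPM in HP1g KO. Of 5 markers of CD8 T or NK cells Klrb1c and Klrd1 were called higher and Cd8b1 lower in all 4 settings. Of 8 B cell markers Cd22 was called higher and Cd79a lower in all 4, Ms4a1 lower in 3 and Fcrla lower in HP1g KO. Of 8 stromal or endothelial markers Pecam1 was called lower in all 4 and Col1a1 higher in HP1a KO. DESeq2 called 1, 2 and 3 of the latter list higher in HP1a WT, HP1a KO and HP1g WT. The summed level of 8 neuronal markers was 0.272 to 0.858 CPM in naive and 1.38 to 15.2 CPM in Tconv libraries. In the latter it came chiefly from Stmn2, at 0.813 to 14.4 CPM in Tconv and at most 0.0262 CPM in naive libraries. Stmn2 was called higher in all 4 settings and Tubb3 in HP1a WT. Nefl and Syt1 had no count in any naive library and some in each Tconv group. Gap43 and Elavl4 had no count in any naive or Tconv library. The part of other cells in the rise of Pcdhgc3 and Pcdhgc4 was not tested.

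The second comparison asked how co-injected Treg altered the array in Tconv. In HP1a WT 1 of 9 members tested was called higher and none lower, where 3.54% of all genes tested were higher. This was Pcdhgc4, at 14.8, 8.23 and 19.5 CPM with Treg and 5.09, 4.76 and 4.16 CPM without (log2 fold change 1.63, SE 0.35, adjusted p = 0.0336, edgeR). The libraries did not overlap, but the call was lost without any single Tconv library or TconvTreg replicate 1, with adjusted p of 0.0876 to 0.165. Pcdhgc3 did not follow it: its libraries with Treg, at 7.88, 7.99 and 3.12 CPM, reached from within to below those without, and its log2 fold change of -0.46 (SE 0.388, adjusted p = 0.523, edgeR) was the lowest among the members. In TconvTreg replicate 3 Pcdhgc3 and Pcdhgb6 were low at once, at 3.12 and 0.0779 CPM, and BC037039 reached 59.2% of the counts of Pcdhgc3 in 1 library of this group.

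Of the 9 members tested 4 were higher in every HP1a WT TconvTreg library than in any Tconv library, beside 15.7% of all genes. Members that pass the filter on low counts only through the group in which they are high had to differ, so that this number is not read further. DESeq2 called 4 members, all higher, where it called 9.26% of genes. These were Pcdhgc4, Pcdhgb7 (log2 fold change 1.90, DESeq2 adjusted p = 0.00762, edgeR adjusted p = 0.0872), Pcdhgb5 and Pcdhga5. Pcdhgb5 had 32, 22 and 71 counts with Treg and 0, 0 and 3 without, a ratio of 37.3 (95% interval 12.5 to 183), and its edgeR adjusted p was 0.0529. Pcdhga5 had 34, 0 and 39 counts with Treg and 1, 0 and 0 without, and was not tested by edgeR.

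In the other 3 settings no member was called by edgeR. In HP1a KO this was 0 of 11 members, beside 0.44% of all genes called. At an unadjusted p under 0.05 there were also 0 members, beside 15.8% of genes. The highest was Pcdhgb5 with a log2 fold change of 1.39 (adjusted p = 0.425, edgeR) and the lowest Pcdhgb8 with -1.11 (adjusted p = 0.783). DESeq2 called 1 member in HP1a KO, Pcdhga4, beside 2.5% of genes. It had 7, 3 and 35 counts without Treg and 0 in each library with Treg, hence a level at least 4.12-fold lower with Treg. In HP1g WT 0 of 10 members were called (0.0126% of genes), and none by DESeq2. An unadjusted p under 0.05 was found for 1 member, beside 6.89% of genes. The range of log2 fold changes was from -0.95 for Pcdhga11 (adjusted p = 0.899, edgeR) to 2.03 for Pcdhgb4 (adjusted p = 0.694).

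In HP1g KO 0 of 16 members were called by edgeR, as was 0% of all 16991 genes, although 5 members and 1294 genes were at an unadjusted p under 0.05. Of the 16 members 7 were higher in both TconvTreg libraries than in all Tconv libraries, beside 12.3% of genes, and this number is not read further, since members such as Pcdhgb2 passed the filter only through their TconvTreg libraries. DESeq2 called 2 members higher, beside 1.62% of genes. Pcdhgb2 was at 10.7 and 1.2 CPM with Treg and at 0.0769, 0.154 and 0.155 CPM without (DESeq2 log2 fold change 5.54, SE 0.897, adjusted p = 5.78e-07; edgeR adjusted p = 0.503), and the pair of TconvTreg libraries differed from each other by far more than the Tconv libraries did. Pcdhga4 was at 4.64 and 2.33 CPM with Treg and at 0.961, 0.943 and 0.422 CPM without (DESeq2 log2 fold change 2.17, SE 0.564, adjusted p = 0.0126; edgeR adjusted p = 0.503). Pcdhgb8 was the lowest, with a log2 fold change of -0.49 (adjusted p = 0.934, edgeR).

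The myeloid markers moved with Treg in HP1a WT, where 4 of 12 were called higher and the summed level was 214 to 255 CPM with Treg and 94.5 to 121 CPM without. B cell markers were at 10.8 to 36.2 CPM with Treg and 5.24 to 19.7 CPM without in HP1a WT, with Blk called higher. They were at 15.1 to 63.5 CPM with and 6.41 to 14.3 CPM without Treg in HP1a KO, and at 24.2 to 25.8 and 6.28 to 13.6 CPM in HP1g KO, both without overlap, though no gene of the list was called by edgeR there and only 1 by DESeq2, in HP1g KO. In HP1g WT they were at 4.13 to 15.5 and 3.34 to 6.49 CPM. Myeloid sums were higher without overlap in HP1g KO as well, at 242 to 398 CPM with and 148 to 216 CPM without Treg, and overlapped in HP1a KO and HP1g WT. The part of these cells in the differences of the gamma members was not tested.

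The third comparison, of KO with WT cells, asked whether loss of an HP1 protein released the arrays. No member was called by edgeR in any of the 6 comparisons. In naive cells the summed gamma level was 12.3 ± 0.668 CPM in HP1a KO and 11.6 ± 1.17 CPM in HP1a WT, and 11.2 ± 1.85 CPM in HP1g KO and 9.03 ± 4.42 CPM in HP1g WT (SD, n = 3 each), with overlap in both lines. In HP1a naive cells 0 of 12 members were called (0% of 15549 genes), and none by DESeq2. At an unadjusted p under 0.05 were 2 members, beside 1.87% of genes. Pcdhgc3 was the highest, at 2.13, 1.77 and 1.27 CPM in KO and 0.666, 0.695 and 1.02 CPM in WT (edgeR log2 fold change 1.11, SE 0.322, adjusted p = 1), and Pcdhgc5 the lowest (-1.05, SE 0.805). In HP1g naive cells 0 of 10 were called (0.00669% of genes), and none by DESeq2. An unadjusted p under 0.05 was found for 1 member, beside 5.78% of genes. Pcdhgc5 was the highest (log2 fold change 1.89, SE 0.593, adjusted p = 0.63, edgeR), with all KO libraries, at 0.304, 0.474 and 0.722 CPM, above the WT libraries at 0.223, 0.125 and 0.0524 CPM, and Pcdhgb5 was the lowest (-0.80, adjusted p = 0.675).

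In HP1a Tconv the gamma sum was 23.6, 21.5 and 20.6 CPM in KO and 18.6, 16.1 and 18.7 CPM in WT, 1.23 times as high on average without overlap. C types overlapped, at 14.4 ± 1.07 CPM in KO and 14.2 ± 1.43 CPM in WT, whereas A and B types, at 7.5 ± 0.673 and 3.63 ± 0.684 CPM, did not (SD, n = 3 each). By edgeR 0 of 8 members were called, beside 0.103% of genes. At an unadjusted p under 0.05 was 1 member, beside 8.53% of genes. That member, Pcdhgb7, was at 2.27, 1.98 and 2.51 CPM in KO and 1.25, 0.611 and 0.725 CPM in its WT counterparts (log2 fold change 1.39, SE 0.339, adjusted p = 0.489, edgeR), and DESeq2 called it (adjusted p = 0.04), the only member among the 1.11% of genes that DESeq2 called. Pcdhga11 had the highest log2 fold change (1.56, adjusted p = 0.647, edgeR) and Pcdhgc5 the lowest (-0.72, adjusted p = 0.617). Markers of other cells were higher in these KO libraries. Erythroid markers were at 26.5 to 771 CPM against 2.04 to 3.44 CPM in WT, with 0 of 7 called by edgeR and 6 by DESeq2, and myeloid markers at 129 to 373 against 94.5 to 121 CPM, with 0 of 12 called by edgeR and 5 by DESeq2. Cd8a was called higher by both. The part of these cells was not tested.

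In HP1a TconvTreg the direction differed between members. The gamma sum was 28.7 ± 3.13 CPM in KO and 33.5 ± 8.01 CPM in WT (SD, n = 3 each), with overlap. None of 12 members was called by edgeR (0.123% of genes) or by DESeq2. At an unadjusted p under 0.05 were 2 members, beside 12.1% of genes. Pcdhgc3 was the highest, at 12.8, 10.8 and 14.8 CPM in KO against 7.88, 7.99 and 3.12 CPM in WT (SE 0.385 around a log2 fold change of 1, adjusted p = 0.358, edgeR). Pcdhgc4 lay the other way, at 6.91, 9.54 and 4.54 CPM in KO against 14.8, 8.23 and 19.5 CPM in WT, with overlap (log2 fold change -1.04, SE 0.413, adjusted p = 0.372, edgeR), and the lowest was Pcdhga5 (-2.46, adjusted p = 0.589). Erythroid markers were at 112 to 704 CPM in KO and 2.7 to 50 CPM in WT, with 0 of 7 called by edgeR and 6 by DESeq2. Myeloid markers were at 350 to 753 and 214 to 255 CPM, with 0 of 12 called by edgeR and 5 by DESeq2. B cell markers overlapped, at 15.1 to 63.5 and 10.8 to 36.2 CPM. The part of these cells was not tested.

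In HP1g the gamma sums were higher in KO than in WT in both grafted conditions. Tconv libraries were at 30.3, 41.2 and 47 CPM in KO and at 19.9, 22.7 and 24 CPM in WT, 1.78 times as high on average. TconvTreg libraries were at 74.5 and 55.7 CPM in KO and at 25.3, 25.7 and 35 CPM in WT, 2.27 times as high. Neither pair of groups overlapped. The 2 KO TconvTreg libraries differed from each other far more than other replicates did, with a chi-square of 2860 per gene between their counts, where no pair of the other groups exceeded 325. C types were at 1.82 and A and B types at 1.68 times the WT mean in Tconv, and at 1.94 and 2.95 times in TconvTreg.

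For single members these differences did not pass the test. In HP1g Tconv 0 of 10 members were called by edgeR, beside 0.0437% of genes, and 4 members were at an unadjusted p under 0.05, beside 8.42% of genes. All 10 fitted log2 fold changes were above 0, with a median of 0.69, beside 53% of genes and a median of 0.02, and 5 of 10 members were higher in every KO library, beside 6.88% of genes. As above, members with few WT counts such as Pcdhga4 entered the test through their KO libraries, so that these numbers do not stand for the array. DESeq2 called 3 members higher, beside 1.43% of genes. Pcdhga4 was at 0.961, 0.943 and 0.422 CPM in KO and 0.0402, 0 and 0.125 CPM in WT (DESeq2 log2 fold change 3.80, SE 0.926, adjusted p = 0.00421; edgeR adjusted p = 0.26). Pcdhgb4 was at 0.73, 0.965 and 0.733 CPM in KO and 0.121, 0.203 and 0.291 CPM in WT (DESeq2 log2 fold change 1.98, SE 0.605, adjusted p = 0.0494; edgeR adjusted p = 0.241). Pcdhgc4 was at 3.71, 10.4 and 13.7 CPM in KO and 2.83, 2.69 and 2.76 CPM in WT (DESeq2 log2 fold change 1.75, SE 0.408, adjusted p = 0.00229; edgeR adjusted p = 0.302).

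In each of these the WT and KO libraries did not overlap, and the low KO value of Pcdhgc4 came from replicate 1, without which edgeR called the gene as well (log2 fold change 2.12, adjusted p = 0.0367). Pcdhgc3 had a smaller difference, 14.2, 18.5 and 21.1 CPM in KO against 10.5, 12.3 and 13.7 CPM in WT (edgeR log2 fold change 0.58, SE 0.187, adjusted p = 0.437). Pcdhga12 was the lowest of the members, with a log2 fold change of 0.22 (adjusted p = 0.927).

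In HP1g TconvTreg 0 of 17 members were called by edgeR, as was 0% of 17177 genes, with 5 members and 2028 genes at an unadjusted p under 0.05. The fitted log2 fold change was above 0 for 15 of 17 members, with a median of 1.12, beside 51.3% of genes and a median of 0.01, and 9 of 17 were higher in both KO libraries than in any WT library, beside 14.9% of genes. As several members passed the filter only through their KO libraries, these numbers do not stand for the array. DESeq2 called 3 members higher, beside 3.57% of genes. Pcdhga4 was at 4.64 and 2.33 CPM in KO and at 0.532, 0.116 and 0.247 CPM in WT (DESeq2 log2 fold change 3.54, SE 0.692, adjusted p = 4.85e-05; edgeR adjusted p = 0.188). Pcdhgb7 was at 4.91 and 3.37 CPM in KO and at 1.86, 1.58 and 2.15 CPM in WT (DESeq2 log2 fold change 1.15, SE 0.356, adjusted p = 0.031; edgeR adjusted p = 0.26).

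The third, Pcdhga2, had 75 and 12 counts in KO and none in WT, a level at least 12.1-fold higher when the WT libraries are set to 3 counts each (DESeq2 adjusted p = 0.00233, edgeR adjusted p = 0.234). The same gene had 6, 7 and 5 counts in HP1g KO Tconv and none in WT, at least 2-fold higher by the same limit. Pcdhgc3, the most abundant member, was at 28.4 and 24.8 CPM in KO and 12.7, 14.2 and 15.1 CPM in WT (edgeR log2 fold change 0.94, SE 0.161, adjusted p = 0.184), and Pcdhgb5 was the lowest, with a log2 fold change of -0.23 (adjusted p = 0.962). Of the 6 members detected in all 12 groups, Pcdhgc3, Pcdhgc4, Pcdhgb4, Pcdhgb6 and Pcdhgb7 were higher in both KO libraries than in all WT libraries, and Pcdhga12 was not, at 0.962 and 0.917 CPM against 0.532, 0.65 and 1.53 CPM. Among all genes tested 14.9% were higher in this way. Both KO libraries differ widely and Salmon divides the reads of shared exons between members. These 6 are therefore not separate observations, and their number is not read further.

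**Figure D4:**
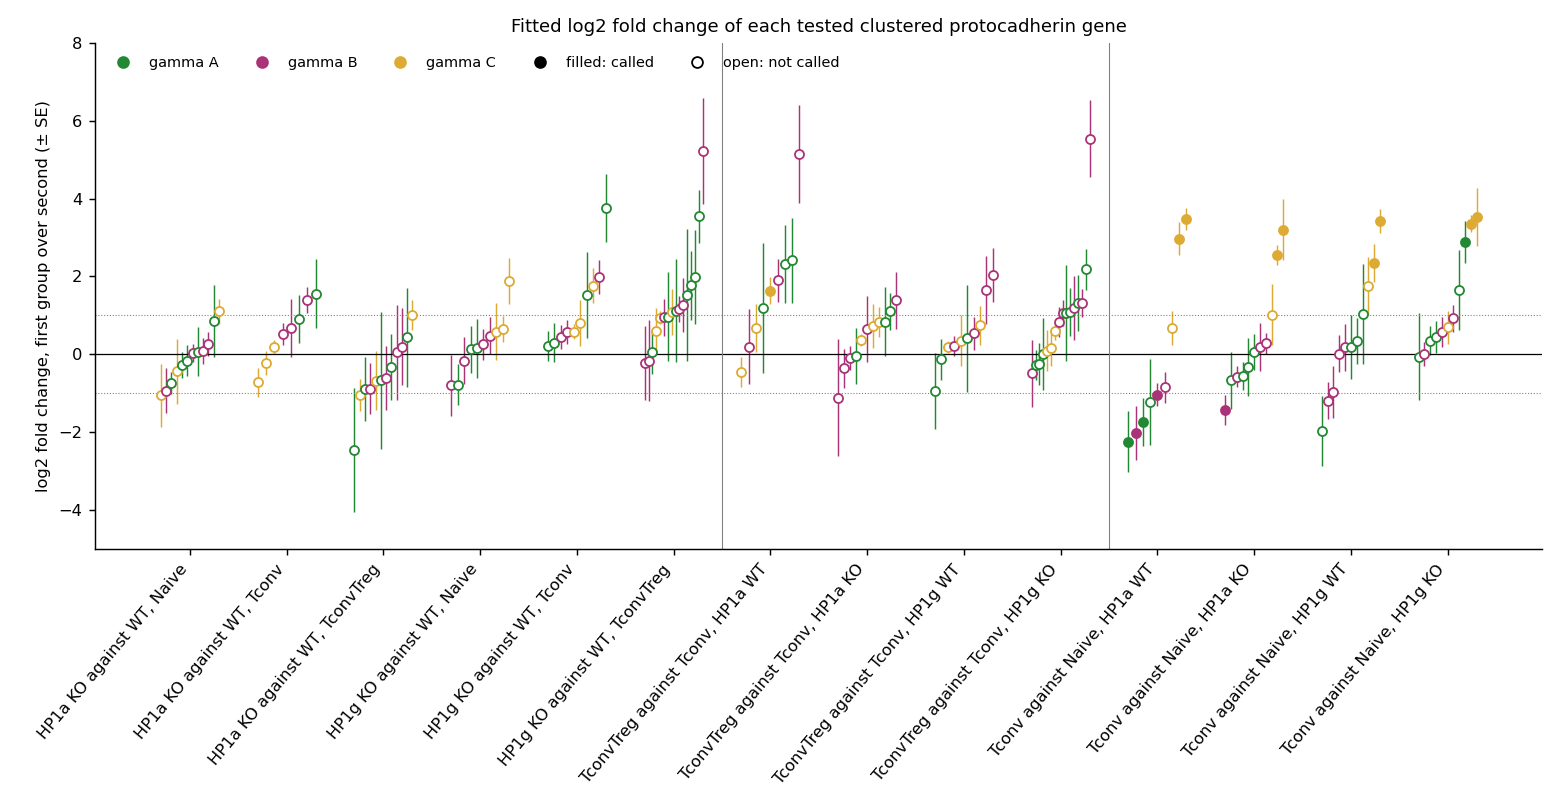
Fitted log2 fold change ± SE (vertical axis) of each member tested in the 14 pairwise comparisons (horizontal axis), coloured by gamma type, with filled points for members called by edgeR and dotted lines at 1 and -1. Members with a group at 0 counts are not drawn. Filled points are found for activation in all 4 settings and for Pcdhgc4 with Treg in HP1a WT. Members that pass the filter on low counts only through their higher group are drawn too, so that the spread of points around 0 is not to be read.

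In HP1g none of the 8 B cell markers was called by edgeR or DESeq2 between KO and WT. Their summed level was 7.2 to 9.59 CPM in KO and 3.52 to 5.64 CPM in WT naive cells, without overlap. In Tconv it was 6.28 to 13.6 CPM in KO and 3.34 to 6.49 CPM in WT, with overlap. In TconvTreg it was 24.2 to 25.8 CPM in KO and 4.13 to 15.5 CPM in WT, without. The defining markers Pax5 and Ms4a1 were at 0.506 to 0.859 and 0.364 to 0.464 CPM in KO TconvTreg and at most 0.176 and 0.123 CPM in WT TconvTreg. Neuronal markers were at 2.47 to 5.3 CPM in KO and 2.06 to 3.34 CPM in WT TconvTreg, with overlap. Elavl4, Gap43 and Snap25 had no count in the WT group, and Gap43, Rbfox3 and Syt1 had none in the KO group. Myeloid markers were at 242 to 398 CPM in KO and 206 to 241 CPM in WT TconvTreg, without overlap. Of these 12 genes 0 were called by edgeR and 1 by DESeq2. Erythroid markers were at 112 to 6120 CPM in KO and 155 to 3480 CPM in WT TconvTreg, with overlap, and none was called by either. In Tconv both lists overlapped between KO and WT, and no gene of them was called. The part of other cells in the higher gamma levels was not tested. None of the lists of architectural proteins, silencing factors, neighbours and partners had a gene called by edgeR in any comparison of KO with WT.

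Finally, the difference of the Treg effect and of the activation effect between genotypes was tested within each line. No member was called by edgeR or DESeq2 in any of the 4 interactions. For Treg these were 0 of 14 members in HP1a (0.139% of genes called) and 0 of 15 in HP1g (0% of 17833 genes). At an unadjusted p under 0.05 were 2 members in HP1a (9.74% of genes) and 1 in HP1g (3.74%). For activation 0 of 13 members were called in HP1a (0.00587% of genes) and 0 of 14 in HP1g (0.0235% of genes). Here 4 members in HP1a (4.89% of genes) and 1 in HP1g (7.89%) were at an unadjusted p under 0.05. Pcdhgb7 had the lowest adjusted p of the Treg interaction in HP1a (log2 difference -2.26, SE 0.779, adjusted p = 0.328, edgeR), and Pcdhgb4 that of the activation interaction in HP1g (1.78, SE 0.591, adjusted p = 0.506). The highest and lowest log2 differences were 0.83 for Pcdhgc3 and -4.21 for Pcdhga5 (Treg, HP1a), 5.52 for Pcdhgb2 and -0.73 for Pcdhgb4 (Treg, HP1g), 4.11 for Pcdhgb5 and -0.92 for Pcdhgc3 (activation, HP1a), and 2.49 for Pcdhga8 and -1.03 for Pcdhgc5 (activation, HP1g). For Pcdhga4, which was called on activation in HP1g KO, the interaction was 2.17 (SE 1.47, adjusted p = 0.636, edgeR), and the gene was not tested on activation in HP1g WT.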

How the data were processed

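RNA-seq libraries were made with a SMART-Seq kit that does not mark strand, from naive CD4+ T cells, Tconv and TconvTreg of 12 groups. The authors ran nf-core/rnaseq (trimming by Trim Galore and Cutadapt, alignment by STAR, quantification by Salmon, GRCm39 build and Ensembl genes) and deposited estimated counts per gene, which need not be whole. Groups and replicate numbers were read from sample titles. Counts were rounded to whole numbers and tested across all genes with edgeR 4.0.16 (R 4.3.3): quasi-likelihood, robust estimation, TMM and filterByExpr, with only the groups compared and Benjamini-Hochberg adjustment. Calls needed an adjusted p under 0.05 together with a log2 fold change beyond 1 in either direction. DESeq2 1.42.0, RLE factors, no filter, no fold threshold, a replicate block, all libraries of the line, the left-out library and each library left out were the alternatives. The script was tested on simulated data. Positions and exon lengths came from GENCODE vM39 (GRCm39), which lacked 731 genes of the table and no member. SDs are over libraries, and SE is that of the log2 fold change.

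Members were named where edgeR or DESeq2 called them, if among the 10 of highest mean CPM, as C types, or as highest or lowest in a comparison; members named for their place in the array or their detection in all groups were added after values were seen. The members and lists were chosen with earlier results of these data known. Lists, besides those described with the results, held 5 markers of CD8 T or NK cells and 8 of stromal or endothelial cells; their summed levels were 20.9 to 235 and 47.2 to 275 CPM over the libraries used.

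Libraries with the same replicate number were taken to be linked where, for all 3 numbers, the deviations from the group means of libraries with that number correlated above 0.1. This held for HP1a KO against WT in naive cells (0.287 to 0.654) and HP1g KO against WT in Tconv (0.112 to 0.431). The tests reported with the results did not use this link, and a fit with the replicate number as a block was an alternative only. In HP1a naive cells the block called 12 of all genes, instead of 0. The lowest adjusted p of a member was then 0.346 (edgeR). For HP1g KO TconvTreg only 2 replicate numbers were left, so that the rule for a link could not be met. Their correlations were 0.38 and 0.197 with HP1g WT TconvTreg, and 0.184 and 0.1 with HP1g KO Tconv.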

Additional observations from a re-analysis of the deposited data

Results flagged for a closer look

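Pcdhgc5 in Tconv differed between genotypes in opposite directions in the 2 lines. In HP1a all KO libraries (0.35 to 0.577 CPM) were below all WT libraries (0.632 to 0.859 CPM), and in HP1g all KO libraries (0.688 to 0.943 CPM, mean 0.794 CPM) were above all WT libraries (0.125 to 0.663 CPM). The difference between the lines was not tested, and neither comparison was called.

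The library left out of all comparisons, replicate 3 of HP1g KO TconvTreg, had high levels of several members. The summed gamma level was 200 CPM there, from 2874 counts, or 77.8 CPM of the library total without TMM, against 74.5 CPM with TMM in the highest of the 35 others. On the TMM scale, which raises the values of this library, 15 members with at least 10 counts were above all 35 libraries. By the library total alone 9 of them were, and Pcdhgc3 (17.2 CPM against up to 28.3), Pcdhgb6 (3.6 against 8.18), Pcdhga4 (3.71 against 4.63), Pcdhga12 (1.98 against 2.67), Pcdhga10 (0.812 against 1.25) and Pcdhga8 (0.352 against 0.806) were not. The share of all genes that were above in this way was not determined, so these numbers are not read further. Other lists were shifted there as well. Partners, silencing factors and neighbours summed to 15200, 4070 and 1530 CPM, against at most 883, 2060 and 1120 CPM elsewhere. Architectural proteins summed to 1210 CPM, against at least 1380 CPM elsewhere. With TMM, the C types Pcdhgc3 and Pcdhgc5 were at 44.2 and 21.4 CPM, and the latter did not exceed 1.99 CPM elsewhere. Among B types Pcdhgb7 was at 24.5, Pcdhgb4 at 13.1, Pcdhgb5 at 10.6 and Pcdhgb6 at 9.25 CPM. Among A types Pcdhga11 was at 22.6, Pcdhga7 at 11.1, Pcdhga4 at 9.53, Pcdhga2 at 8.21 and Pcdhga12 at 5.08 CPM, with Pcdhga9 and Pcdhga10 at 2.09 CPM each and Pcdhga8 at 0.904 CPM. The beta member Pcdhb22 was at 1.11 CPM. This library had the fewest genes with at least 3 counts, 16046, and a summed level of B cell markers of 121 CPM, and it had been set aside by the authors over GC content, the share of exonic reads and uneven transcript coverage. The part of these in its gamma level was not tested.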

How the results depend on the processing

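Calls of single members rest on few libraries and, for most A and B types, on few counts, which Salmon divided between members. With DESeq2 the number of members called was 1 for HP1a KO against WT in Tconv, 3 for HP1g KO against WT in Tconv and 3 in TconvTreg, and with Treg against without 4 in HP1a WT, 1 in HP1a KO and 2 in HP1g KO. Without a filter on low counts 2 were called for HP1g KO against WT in TconvTreg (Pcdhga2 and Pcdhga4) and 2 for Treg in HP1a WT. With all libraries of the line in the fit these were 2 (Pcdhga4 and Pcdhgb2) and 3 (Pcdhga12, Pcdhgb5 and Pcdhgb7, without Pcdhgc4). For Tconv against naive in HP1a WT that fit called 3. Leaving out each library in turn gave 0 to 1 members for HP1g KO against WT in Tconv, 0 to 2 for Treg in HP1a WT, 0 to 1 for Treg in HP1g KO (Pcdhgb2, without TconvTreg replicate 2), 2 to 6 for activation in HP1a WT (2 without naive replicate 2 or 3, 3 without Tconv replicate 2), 2 to 4 in HP1a KO, 2 to 3 in HP1g WT and 3 to 5 in HP1g KO (5 without Tconv replicate 1). RLE factors, no threshold on the fold change and the left-out library kept each number of members called within 1.5 times its value. With a count minimum of 3 in any library 32 members were detected, instead of 20. The left-out library raised the mean gamma sum of HP1g KO TconvTreg from 65.1 to 110 CPM with TMM, but only from 65.7 to 69.7 CPM by the library total without TMM, an alternative chosen after seeing the data. No fitted direction of a member called by edgeR or DESeq2 reversed.

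With the replicate number as a block 4 instead of 6 members were called for activation in HP1a WT and 2 instead of 3 in HP1a KO, and for Treg in HP1a WT Pcdhgb5 was called (log2 fold change 5.52, edgeR adjusted p = 0.0441) in place of Pcdhgc4. The numbers do not pair the libraries in these 3 comparisons. In the pair of comparisons that met the rule for a link, the block called 0 members, as without it.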
